A study of Mus musculus with 15 samples.

Results

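The Krüppel-like factors (KLFs) are transcription factors that bind GC-rich and CACCC-type DNA with zinc fingers at their carboxy end. Members differ in the rest of the protein: KLF2, KLF4 and KLF6 are mainly known as activators, KLF3 recruits the CtBP co-repressors, and KLF9, KLF10 and KLF13 recruit the Sin3A co-repressor. In lymphocytes, KLF2 is known for keeping resting cells quiet and for control of their trafficking, and KLF4 and KLF9 for restraint of B cell proliferation. The 7 genes described here, Klf2, Klf3, Klf4, Klf6, Klf9, Klf10 and Klf13, were taken by symbol from the 51912 gene rows of the count table. All 7 were found, each with 1 row, out of 17 Klf genes in the table, and all 7 passed the filter on low counts.

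The libraries came from wild-type mouse B cells cultured on 40LB cells, a fibroblast-derived feeder line that supports B cells, and given IL-4 (100 ng/ml) over 6 days. A bulk, unsorted sample of that culture formed the D6 group. The other cells were lifted off the feeders, held for 2 days in medium with no stimulus, and flow sorted into IgE iGC, IgG1 iGC, IgE PC and IgG1 PC cells. PC stands for plasma cells, and iGC, which the labels leave unexplained, is the labels' name for the sorted cells that were not plasma cells. Each of the 5 groups had 3 biological replicates. All groups share the genotype, IL-4 and feeder culture, and the 4 sorted groups differ from D6 in day, sorting and removal from feeders at once, so that these cannot be told apart.

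Deposited counts summed to between 17740876 and 54067953 per library. The smallest library was IgE iGC replicate 3, in which Klf4 had 36 counts. Levels are given as CPM, counts scaled to one common library total with TMM factors, as mean ± SD over 3 libraries, and log2 fold changes with their standard error (SE). Genes were called at an adjusted p under 0.05 from edgeR's quasi-likelihood test over 15692 genes. Summed CPM of the 6 plasma cell markers ran from 9264 to 19070 in PC libraries and from 371 to 744 in iGC libraries, and every one of the 5 B cell markers was detected in each group. The 5 T and NK cell markers summed to at most 0.70 CPM in any library, with Cd3e, Cd3d, Cd3g, Ncr1 and Klrb1c all below the filter. The 5 myeloid markers summed to at most 8.58 CPM. The 8 markers of feeder cells summed to between 21.4 and 322 CPM and are given below beside Klf4. In bulk RNA, a smaller share of cells of a type and less RNA per cell cannot be told apart.

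By length-scaled level (TPM, which allows genes to be compared), the 7 members summed to 380 ± 21.4 TPM in D6, 239 ± 14.1 in IgE iGC, 255 ± 7.10 in IgG1 iGC, 81.2 ± 2.99 in IgE PC and 95 ± 18.1 in IgG1 PC. Klf2 supplied 52.3% ± 2.95 of that sum in D6, 61.3% ± 2.46 in IgE iGC and 60.2% ± 0.48 in IgG1 iGC. Its share of the TPM sum was 18% ± 2.31 in IgE PC and 38.2% ± 2.12 in IgG1 PC. Klf13 was the member with the highest TPM in IgE PC, at 36.3% ± 1.5 of the sum, with Klf3 next at 24.0% ± 0.66. In IgG1 PC, Klf2 kept the highest TPM and Klf13 followed at 31.4% ± 2.84. Klf4, Klf9 and Klf10 were the 3 members of lowest TPM in every group. Mean Klf2 was 147 TPM in IgE iGC and 14.7 in IgE PC, and 154 in IgG1 iGC and 36.5 in IgG1 PC. Lower TPM in PC was not particular to these genes, though the median gene fell by less than the member sums did. Over all genes tested, the median change in log2(TPM + 0.5) was -0.57 from IgE iGC to IgE PC. From IgG1 iGC to IgG1 PC that median was -0.46.

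**Figure D1:**
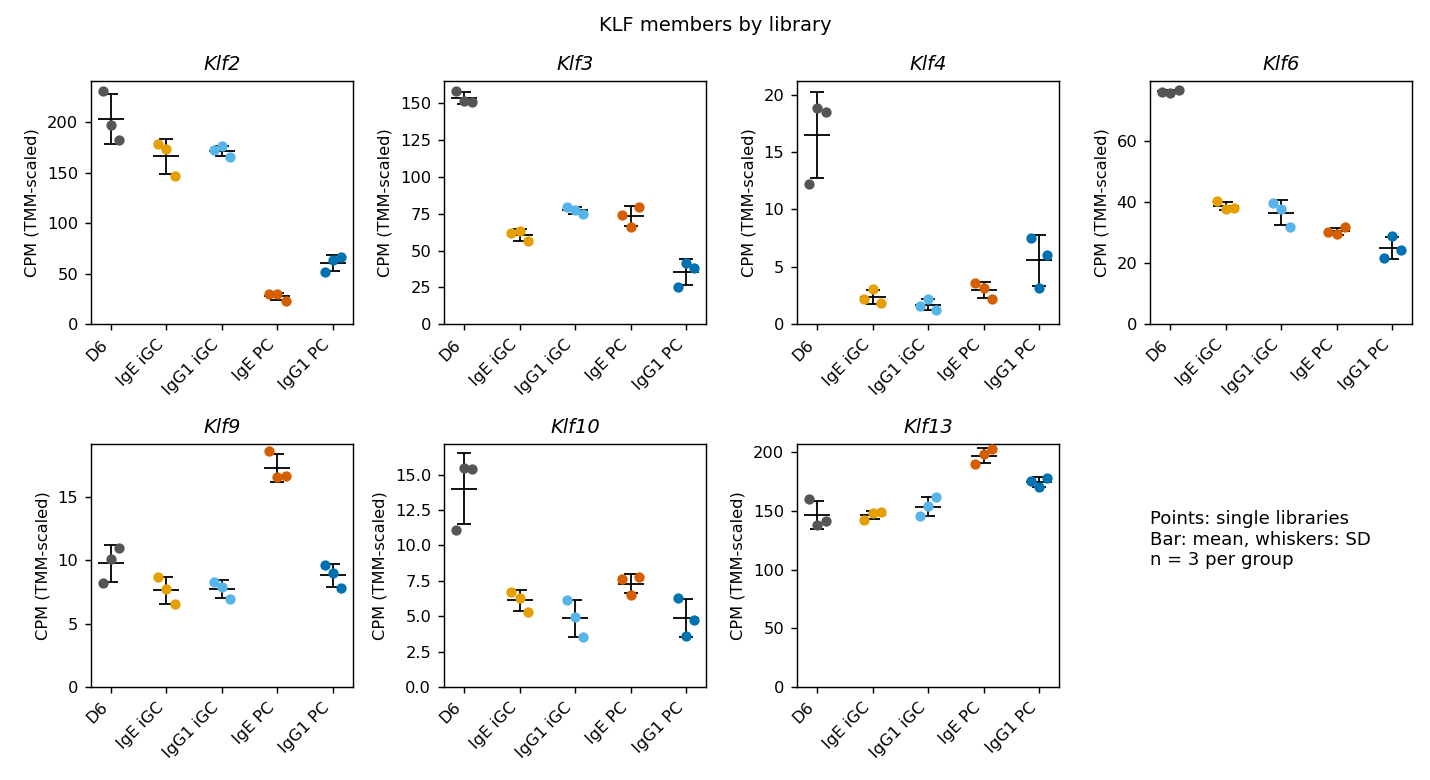
Each panel plots 1 gene, with TMM-scaled CPM on the vertical axis from 0 and the 5 groups on the horizontal axis. Points are the 15 libraries, the bar is the mean and the whiskers are the SD (n = 3 per group). Klf2, Klf3, Klf4, Klf6 and Klf10 have their highest mean in D6, and Klf9 and Klf13 in IgE PC.

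Sequences upstream of the start site are shown for 3 members whose levels separated the sorted groups, with matches to motifs of KLF regulators or of KLF proteins themselves. Promoter windows from RefSeq (GRCm38.p6, 250 bases before to 50 after the start) were given for 6 of the 7 members, and Klf10 is named only. The windows were searched on both strands for 6 motifs: CACCC, which KLF proteins bind; GGGCGG, the GC box of SP and KLF proteins; GTAAACA, the core bound by FOXO proteins; TGACGTCA, the CRE bound by CREB; the MEF2 consensus; and the CArG box bound by SRF. In Klf3 and in Klf13, 1 CACCC match shares a base with a GGGCGG match. The motifs and the sequences to print were chosen after the windows had been seen, and a match is a description of letters only. GENCODE vM21 starts Klf2 and Klf3 upstream of the RefSeq start, by 29 and 133 bases, and those bases are not printed. Each line begins 250 bases before the RefSeq start and ends before the earlier of the 2 starts, 5′ to 3′, with the motif in capitals: the MEF2 consensus in Klf2, CACCC or its reverse complement in Klf3, and GTAAACA in Klf9.

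Klf2 chr8:72318812-72319032: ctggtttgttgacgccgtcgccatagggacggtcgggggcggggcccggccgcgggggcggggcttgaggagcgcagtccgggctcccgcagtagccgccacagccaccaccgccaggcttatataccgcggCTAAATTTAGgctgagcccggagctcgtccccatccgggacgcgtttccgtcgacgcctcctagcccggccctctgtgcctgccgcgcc
Klf3 chr5:64803271-64803387: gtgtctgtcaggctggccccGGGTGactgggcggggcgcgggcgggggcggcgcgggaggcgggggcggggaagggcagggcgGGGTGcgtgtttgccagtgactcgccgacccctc
Klf9 chr19:23140976-23141225: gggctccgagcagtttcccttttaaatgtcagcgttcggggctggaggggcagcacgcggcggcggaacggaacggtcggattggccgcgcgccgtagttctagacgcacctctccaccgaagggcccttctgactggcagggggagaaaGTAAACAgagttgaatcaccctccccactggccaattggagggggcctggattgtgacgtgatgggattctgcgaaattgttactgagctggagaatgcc

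All 3 genes lie on the plus strand. The Klf2 match begins 118 bases before the RefSeq start, and 3.19% of the 32851 promoter windows in the table held a MEF2 consensus. Klf3 had 5 CACCC matches in its window, 2 of them in the printed stretch, a motif present in 57.5% of all windows, and 6 GGGCGG matches, present in 35.7%. The GTAAACA match of Klf9 begins 100 bases before the start and that motif was in 3.65% of windows. Klf2 also held 2 GGGCGG and 1 CACCC, and Klf9 also held 1 CACCC. Klf4 held 4 GGGCGG matches, Klf13 held 3 GGGCGG and 1 CACCC, and Klf6 held 1 GGGCGG. TGACGTCA (1.79% of all windows) and the CArG box (1.63%) matched none of the 6 member windows.

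Klf2, an activator known for lymphocyte quiescence and trafficking, lies at chr8:72319033-72321656 on the plus strand (GRCm38, GENCODE vM21, 3 exons). In D6 its CPM was 231, 197 and 182 in replicates 1, 2 and 3. It measured 179, 173 and 146 in IgE iGC and 173, 176 and 166 in IgG1 iGC. In plasma cells it measured 29.6, 29.8 and 23.3 for IgE and 52.1, 63.9 and 67.1 for IgG1. Every PC library was below every iGC and D6 library, and every IgE PC library was below every IgG1 PC library. From iGC to PC, Klf2 fell by 2.59 on the log2 scale in IgE cells (SE 0.12, 6.03-fold, edgeR adjusted p = 4.62e-11) and by 1.49 in IgG1 cells (SE 0.12, edgeR adjusted p = 4.41e-08). Between the plasma cells it was 2.21-fold lower in IgE (log2 -1.15, SE 0.12, edgeR adjusted p = 1.13e-06). The iGC groups gave a log2 difference of -0.05 with a 95% interval of -0.30 to 0.21. Against D6, the IgE iGC value (log2 -0.29, edgeR adjusted p = 0.0328) passed and the IgG1 iGC value (-0.24, 0.0671) did not, except without D6 replicate 3 (0.0372); the first call was lost without D6 replicate 1 or 2, or IgE iGC replicate 2 or 3, with adjusted p up to 0.184. It was also lost with no filter (0.0955) and with only these groups fitted (0.0935), and DESeq2 called the IgG1 iGC value too (0.0403). The order of groups was therefore D6, both iGC groups, IgG1 PC and IgE PC, with the first 3 not separated throughout.

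Klf4, an activator known for arrest of the B cell cycle, lies at chr4:55527143-55532466 on the minus strand. Its CPM was 12.2, 18.8 and 18.4 in D6 replicates 1 to 3. The sorted iGC libraries measured 2.21, 3.08 and 1.86 for IgE and 1.59, 2.20 and 1.27 for IgG1. IgE PC libraries measured 3.63, 3.13 and 2.20, and IgG1 PC libraries 7.52, 3.18 and 6.00. All D6 libraries were above all sorted libraries, and the 2 PC groups overlapped. Relative to D6, Klf4 was lower by 2.77, 3.28, 2.46 and 1.58 on the log2 scale in IgE iGC, IgG1 iGC, IgE PC and IgG1 PC (edgeR adjusted p at most 0.000168). It rose from IgG1 iGC to IgG1 PC by 1.70 (SE 0.32, edgeR adjusted p = 0.000391), and the IgE step gave 0.31 (SE 0.33, adjusted p = 0.432). Klf4 was lower in IgE PC than in IgG1 PC by 0.87 (SE 0.31, edgeR adjusted p = 0.0245), a call lost without IgE PC replicate 2 or 3 or IgG1 PC replicate 1 or 3, with adjusted p up to 0.118. That call was also lost with no filter (0.0829) and with only the PC groups fitted (0.0516). On the log2(TPM + 0.5) scale the IgG1 step was 0.75 (limma adjusted p = 0.0114).

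Like Klf4, markers of feeder cells were highest in D6, but they did not follow Klf4 in every comparison. Their sum was 49.3 to 67.5 CPM in IgE iGC and lower, at 21.4 to 35.3 CPM, in IgE PC. Mean Klf4 was 2.38 CPM in IgE iGC and 2.98 CPM in IgE PC, a difference that was not called. The sum of Col1a1, Col1a2, Col3a1, Dcn, Pdgfrb, Postn, Sparc and Fn1 was 196, 312 and 322 CPM in D6 replicates 1 to 3, where the unsorted culture was sampled. It was 187, 62.9 and 185 CPM in IgG1 PC, and 34.5, 35.3 and 21.4 CPM in IgE PC. In iGC libraries it ran from 28.3 to 67.5 CPM. Of the 7 feeder markers tested, 6 were called higher in IgG1 PC than in IgE PC (58.1% of all genes called in either direction). In IgG1 PC against IgG1 iGC, 6 were called higher (59.1% of all genes called in either direction). The ratio of Klf4 CPM to the feeder sum was 0.0573 to 0.0621 in D6, 0.0325 to 0.0507 in IgG1 PC, 0.0375 to 0.0563 over the iGC libraries, and 0.0886 to 0.105 in IgE PC. The part of feeder RNA in the Klf4 differences, and in the differences of the other members from D6, was not tested. Within D6, Klf9 and Klf10 were lowest in replicate 1, as Klf4 and the feeder sum were. Klf2, Klf3 and Klf13 were highest in that replicate. Postn was at 0 in every group but IgG1 PC. The genes whose log2 CPM followed Klf4 most closely over the 15 libraries were Itga5, Mgat4b and Tnfrsf12a (Pearson r 0.99, 0.99 and 0.99, among 8972 genes that reached 10 CPM in a group). Itga5 encodes the alpha chain of the fibronectin receptor, and its mean was 24.3 CPM in D6, 4.5 in IgG1 PC and at most 1.69 in the other groups.

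**Figure D2:**
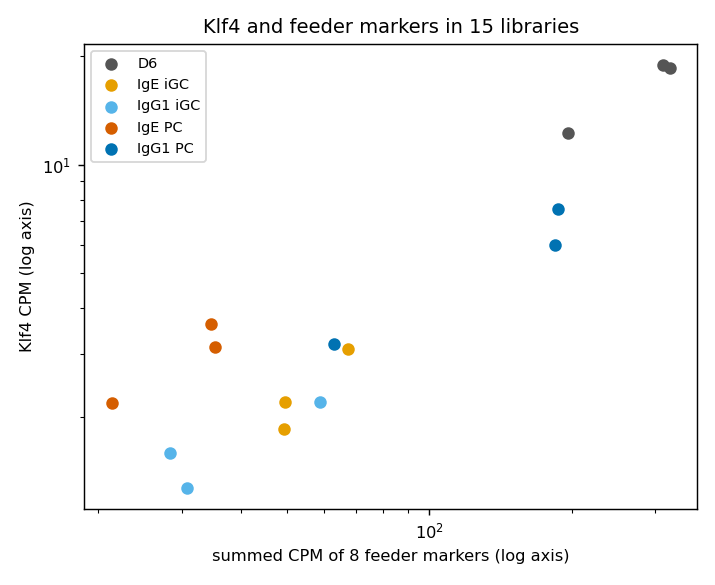
Klf4 CPM (vertical, log axis) is plotted against the summed CPM of 8 feeder markers (horizontal, log axis), 1 point per library, coloured by group. The 3 D6 libraries lie at the upper right, 2 of the 3 IgG1 PC libraries next to them at feeder sums of 185 and 187 CPM, and the 3 IgE PC libraries at the left, at 21.4 to 35.3 CPM.

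Klf6, a broadly expressed activator induced by injury and stimulation, lies at chr13:5861482-5870394 on the plus strand. It measured 76.2, 75.7 and 76.9 CPM in D6, a range that did not overlap any sorted group. The values were 40.3, 37.8 and 37.9 in IgE iGC and 39.8, 37.6 and 32.0 in IgG1 iGC. They were 30.1, 29.6 and 31.8 in IgE PC and 21.6, 28.8 and 24.2 in IgG1 PC. Klf6 fell from D6 by 0.98 and 1.06 on the log2 scale to IgE and IgG1 iGC, and by 1.32 and 1.61 to the PC groups (SE 0.09 each, edgeR adjusted p at most 1.31e-07). The step from iGC to PC fell by 0.34 in IgE cells (edgeR adjusted p = 0.00395) and by 0.55 in IgG1 cells (0.000115), and on the log2(TPM + 0.5) scale by 1.121 and 0.868. The higher level in IgE PC than IgG1 PC (log2 0.29, edgeR adjusted p = 0.0149) turned to -0.11 on the log2(TPM + 0.5) scale (limma adjusted p = 0.591) and to 0.03 under total-count scaling (adjusted p = 0.821), and its edgeR adjusted p was 0.0528 at the highest when IgG1 PC replicate 1 or 3 was left out. The effective length implied by count over TPM, relative to the median of 9929 genes in a library, was 1.40 ± 0.14 in IgE PC and 1.20 ± 0.07 in IgG1 PC for Klf6. For Klf3 these values were 1.57 ± 0.13 and 1.38 ± 0.10. For Klf2, Klf9, Klf10 and Klf13 the mean was slightly lower in IgE PC than in IgG1 PC.

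The KLFs that recruit co-repressors did not move as 1 group. Klf3, which acts through CtBP, lies at chr5:64803388-64832901 on the plus strand. It measured 158, 151 and 151 CPM in D6, and 62.1, 63.5 and 56.2 in IgE iGC. In IgG1 iGC it measured 79.4, 77.2 and 75.0, above every IgE iGC library. The PC libraries measured 74.3, 66.0 and 79.5 for IgE and 25.2, 41.8 and 38.5 for IgG1. Every IgE PC library was thus above every IgG1 PC library, while IgE PC overlapped IgG1 iGC. Klf3 was 2.07-fold higher in IgE PC than in IgG1 PC (log2 1.05, SE 0.13, edgeR adjusted p = 8.02e-06), and by 0.69 on the log2(TPM + 0.5) scale. It fell by 1.13 from IgG1 iGC to IgG1 PC (SE 0.13, edgeR adjusted p = 3.78e-06), against 0.27 in IgE cells (SE 0.13, adjusted p = 0.0809), a value that turned to -0.20 under total-count scaling and -0.47 on the log2(TPM + 0.5) scale (limma adjusted p = 0.015). DESeq2 (0.0499) and the fit to the IgE groups alone (0.00229) called it as a rise. In iGC cells the isotypes differed by -0.35 (SE 0.13, 95% interval -0.63 to -0.06) with an edgeR adjusted p of 0.193 in the fit to all groups, and 0.000835 when only the iGC libraries were fitted. Against D6, Klf3 was lower in all sorted groups, by 0.99 in IgG1 iGC to 2.12 in IgG1 PC. In the IgE step, the median of all genes tested was -0.55 under total-count scaling and -0.57 on the log2(TPM + 0.5) scale.

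Klf9, a Sin3A-recruiting member whose gene responds to glucocorticoid, lies at chr19:23141226-23168134 on the plus strand, with 2 exons. It measured 8.17, 10.1 and 11 CPM in D6, 8.64, 7.69 and 6.51 in IgE iGC and 8.31, 7.89 and 6.92 in IgG1 iGC. IgG1 PC gave 9.59, 9.01 and 7.77. IgE PC gave 18.6, 16.6 and 16.6, and these 3 libraries were above all 12 others. Klf9 rose 2.25-fold from IgE iGC to IgE PC (log2 1.17, SE 0.13, edgeR adjusted p = 7.39e-07), while the IgG1 step gave 0.18 (95% interval -0.10 to 0.47, adjusted p = 0.227), and on the log2(TPM + 0.5) scale it was a called fall (-0.36, limma adjusted p = 0.023). The IgE rise was 0.70 under total-count scaling and 0.40 on the log2(TPM + 0.5) scale (limma adjusted p = 0.0123). It was 1.97-fold higher in IgE PC than in IgG1 PC (log2 0.98, SE 0.12, edgeR adjusted p = 8.14e-06). The rise against D6 in IgE PC (0.82, edgeR adjusted p = 1.78e-05) did not appear on the log2(TPM + 0.5) scale, where it was -0.05 (limma adjusted p = 0.72), and was 0.29 under total-count scaling. For IgG1 PC against D6, -0.15 was not called (0.283), but -0.44 with total-count scaling (0.00509) and -0.78 in log2(TPM + 0.5) (7.55e-05) were. The small falls from D6 to IgE iGC (-0.34, edgeR adjusted p = 0.026) and IgG1 iGC (-0.34, 0.027) were each lost in 4 fits that left out 1 library, namely D6 replicate 2 or 3 or replicate 2 or 3 of the iGC group compared. The 4 groups other than IgE PC followed each other without a called difference between neighbours in their order. On the log2(TPM + 0.5) scale, the median of all genes tested was -0.57 in the IgE step and -0.46 in the IgG1 step. Against D6 that median was -0.69 in IgE PC and -0.55 in IgG1 PC.

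Klf10, a Sin3A-recruiting member first known as a TGF-beta inducible early gene, lies at chr15:38291463-38300706 on the minus strand. It measured 11.1, 15.5 and 15.4 CPM in D6, above all sorted libraries. The D6 libraries also held the highest feeder marker sums, and the part of feeder RNA in the Klf10 values was not tested. Sorted libraries ranged from 5.32 to 6.73 in IgE iGC, 3.53 to 6.13 in IgG1 iGC, 6.51 to 7.77 in IgE PC and 3.59 to 6.26 in IgG1 PC. The fall from D6 was 0.94 on the log2 scale in IgE PC, 1.18 in IgE iGC and 1.52 in IgG1 iGC (edgeR adjusted p at most 0.000641). In IgG1 PC it was 2.92-fold lower than in D6 (edgeR adjusted p = 8.21e-06). Between the PC groups, Klf10 was 1.52-fold higher in IgE (log2 0.60, SE 0.21, edgeR adjusted p = 0.024), although leaving out IgE PC replicate 1 or 3 or IgG1 PC replicate 2 or 3 ended the call, with adjusted p up to 0.0959. Under total-count scaling it was 0.36 (adjusted p = 0.139) and on the log2(TPM + 0.5) scale 0.37 (0.0994). The IgE step was 0.24 (adjusted p = 0.333), against -0.23 under total-count scaling and -0.40 on the log2(TPM + 0.5) scale (limma adjusted p = 0.0492). The IgG1 step was -0.02 (adjusted p = 0.934), against -0.49 on the log2(TPM + 0.5) scale (limma adjusted p = 0.0218). Among the 4 sorted groups in order of mean, no neighbours differed by a called amount. On the log2(TPM + 0.5) scale, the median of all genes tested was -0.57 in the IgE step and -0.46 in the IgG1 step.

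Klf13, a Sin3A-recruiting member known for control of the Ccl5 gene in T cells, lies at chr7:63886351-63938915 on the minus strand. RSEM divided some of its reads with other genes, since 9 of its 15 counts were not whole numbers, against 0 for the other 6 members. It measured 160, 138 and 142 CPM in D6, 142, 149 and 149 in IgE iGC and 146, 154 and 162 in IgG1 iGC. IgE PC gave 190, 199 and 203, and IgG1 PC gave 176, 170 and 178. Each PC library was above every other library, and the PC groups did not overlap. On this TMM scale Klf13 rose from iGC to PC by 0.43 in IgE cells (SE 0.06, edgeR adjusted p = 1.42e-05) and by 0.18 in IgG1 cells (SE 0.06, 0.016), but with total-count scaling these values were -0.04 and -0.05, and on the log2(TPM + 0.5) scale -0.31 and -0.39 (limma adjusted p = 0.00498 and 0.000871). Its direction in plasma cells therefore depended on the scaling. Between the PC groups it had 0.17 (SE 0.06, edgeR adjusted p = 0.022), a call lost without IgE PC replicate 2 or 3, against 0.01 on the log2(TPM + 0.5) scale and -0.08 under total-count scaling. The IgG1 step lost its call without IgG1 iGC replicate 1 or IgG1 PC replicate 3, with adjusted p up to 0.0871. The median of all genes tested moved in the same way, from -0.08 to -0.55 in IgE cells and from 0.01 to -0.22 in IgG1 cells between TMM and total-count scaling. Relative to that median, Klf13 was 0.50 to 0.51 higher in IgE PC under both count scalings and 0.27 higher in TPM; in IgG1 PC it was 0.17 higher under both count scalings and 0.07 higher in TPM.

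Counted together, the 7 members were all called between IgE PC and IgG1 PC, 5 higher and 2 lower in IgE, where 58.1% of all genes tested were called. The count was 4 under total-count scaling, on the log2(TPM + 0.5) scale and with only these 2 groups fitted, and 4 without IgE PC replicate 3 or without IgG1 PC replicate 3. None of the 7 was called between IgE iGC and IgG1 iGC, where 3.87% of genes were; at an unadjusted p under 0.05, 1 member (Klf3) passed, DESeq2 and limma called 0, and the fit to these groups alone called 1. From IgE iGC to IgE PC, 2 members rose, 2 fell and 3 were not called (64.1% of all genes called). From IgG1 iGC to IgG1 PC, 2 rose, 3 fell and 2 were not called (59.1%). Against D6, the lower calls were 6 in IgE iGC (0 higher, 69.1% of all genes called), 5 in IgG1 iGC (0 higher, 68.4%), 5 in IgE PC (2 higher, 76.4%) and 5 in IgG1 PC (1 higher, 71.9%). These comparisons share the D6 libraries. The cross comparisons used only to order neighbouring groups called 6 members for IgE PC against IgG1 iGC (65.2% of all genes) and 5 for IgG1 PC against IgE iGC (56%). In every comparison except that of the iGC groups and the interaction, over 50% of all genes were called, so these counts alone set the family apart in nothing.

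**Figure D3:**
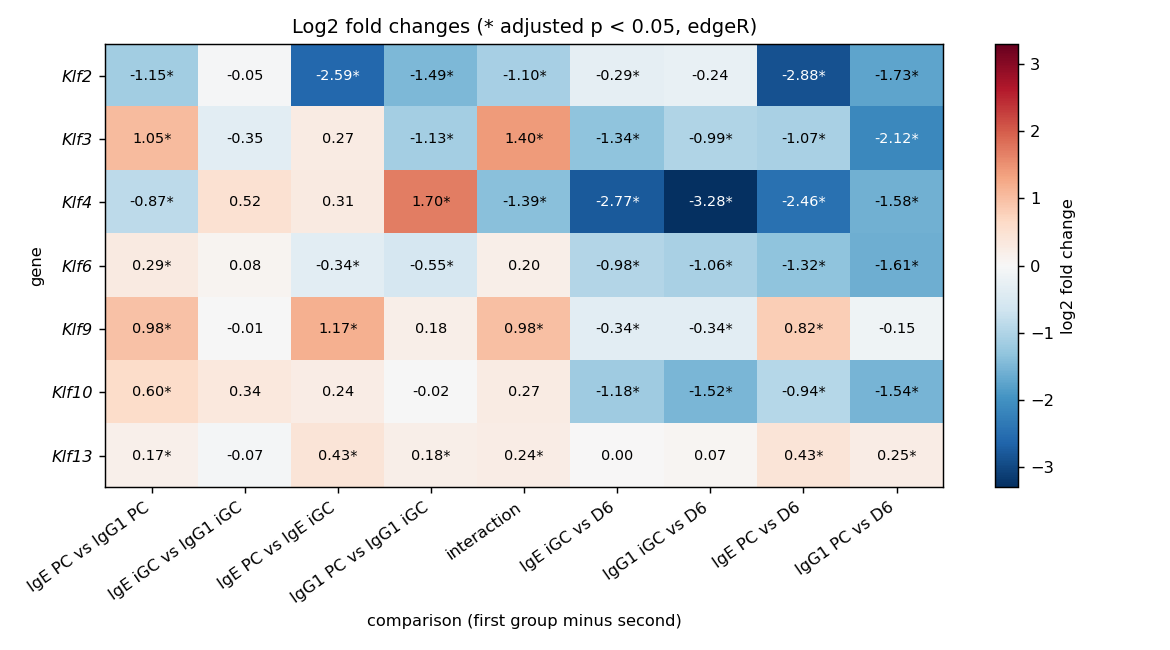
Rows are the 7 genes and columns the 9 main comparisons, with the TMM-scaled log2 fold change (first group minus second) printed and coloured from blue (lower) to red (higher). An asterisk marks an edgeR adjusted p under 0.05. The column for IgE iGC against IgG1 iGC holds no asterisk, and the first column, IgE PC against IgG1 PC, holds 7.

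Whether the iGC to PC step differed between the isotypes was tested with an interaction, computed as the IgE step minus the IgG1 step. Of the 7 members, 5 were called, 3 positive and 2 negative (42.9% of all genes were called). Klf3 had 1.40 (SE 0.18, edgeR adjusted p = 3.34e-05) and Klf9 had 0.98 (SE 0.18, 0.000471). The interaction of Klf2 was -1.10 (SE 0.16, edgeR adjusted p = 9.17e-05). These 3 kept their call under every alternative run. Klf4 had -1.39 (SE 0.46, edgeR adjusted p = 0.0244) and Klf13 had 0.24 (SE 0.09, 0.0322), and each was lost in 6 fits that left out 1 library. For Klf4 these were IgE iGC replicate 2, IgE PC replicate 3, and replicates 1 and 3 of both IgG1 groups (adjusted p up to 0.079). For Klf13 they were IgE iGC replicates 1 and 2, replicate 2 of both PC groups, and IgG1 iGC replicates 2 and 3 (adjusted p up to 0.0885). The Klf13 interaction was 0.0055 under total-count scaling (adjusted p = 0.972) and 0.09 on the log2(TPM + 0.5) scale (0.635). With no filter, neither Klf4 (0.0868) nor Klf13 (0.0791) was called. Klf6 (0.20, 95% interval -0.09 to 0.49) and Klf10 (0.27, 95% interval -0.40 to 0.94) were not called, although Klf6 passed without IgG1 PC replicate 2 (edgeR adjusted p = 0.0247).

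**Figure D4:**
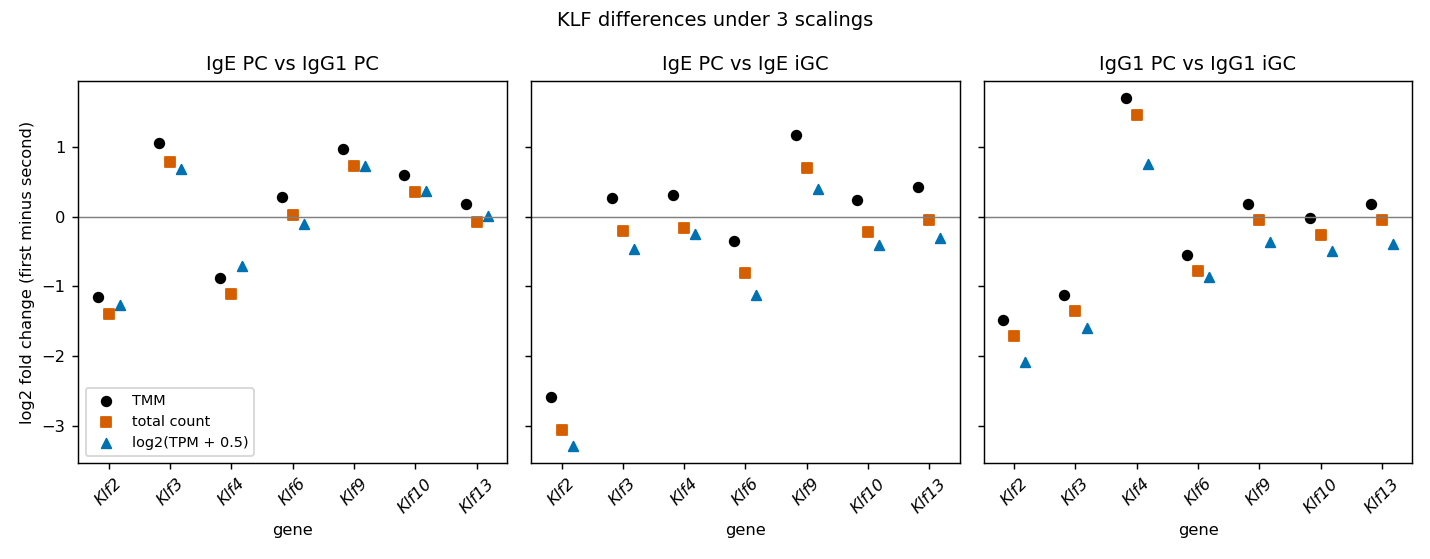
Log2 fold changes (vertical axis, first group minus second) of the 7 genes (horizontal axis) are shown for 3 comparisons with TMM scaling (circles), total-count scaling (squares) and log2(TPM + 0.5) (triangles). Klf2 stays below 0 in all panels, Klf3 and Klf9 stay above 0 between the PC groups, and Klf13 falls from above 0 to below 0 in both steps from iGC to PC.

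Other genes of the family were given as a list of 10, of which 6 were tested and Klf1, Klf14, Klf15 and Klf17 were too low. Between PC groups, 2 of the 6 were higher and 2 lower in IgE, where 58.1% of all genes were called. The median log2 fold change of the 6 was -0.22 against -0.05 for all genes tested. Klf8, a CtBP-recruiting relative of Klf3, had a log2 fold change of 0.74 (SE 0.17, edgeR adjusted p = 0.00161) at 4.40 ± 0.21 CPM in IgE PC, and Klf7 had 0.44 (SE 0.09, adjusted p = 0.000657) at 44.6 ± 2.68 CPM. Klf12, also CtBP-recruiting, had -1.25 (SE 0.40, edgeR adjusted p = 0.0152) and Klf16 had -0.31 (SE 0.07, adjusted p = 0.00108). On the log2(TPM + 0.5) scale only Klf16 was called, with 0 higher and 1 lower. The related SP genes, which bind GC boxes, had 3 of 5 tested higher and 1 lower in IgE PC than IgG1 PC (58.1% of all genes called). Among them were Sp1 at 0.70 (SE 0.09, edgeR adjusted p = 8.57e-06) and Sp3 at 0.57 (SE 0.09, adjusted p = 5.2e-05). Sp1 measured 244 ± 7.80 CPM in IgE PC and 149 ± 26.3 in IgG1 PC. Neither was called on the log2(TPM + 0.5) scale, where 0 SP genes were higher.

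Of 9 co-regulators with which KLF proteins work, 4 were higher and 2 lower in IgE PC than IgG1 PC, where 58.1% of all genes were called, with a median log2 fold change of -0.01. Crebbp, a histone acetyltransferase, had a log2 fold change of 0.60 (edgeR adjusted p = 0.000921) and Kat2b, another, 0.56 (adjusted p = 9.13e-06). Hdac1, a deacetylase of Sin3A complexes, fell by 1.38 from IgE iGC to IgE PC (SE 0.05, edgeR adjusted p = 9.16e-13). In IgG1 cells it fell by 0.65 (SE 0.05, edgeR adjusted p = 1.1e-08). Its CPM was 186 ± 7.95 in IgE iGC, 182 ± 1.69 in IgG1 iGC, 71.5 ± 0.52 in IgE PC and 116 ± 3.99 in IgG1 PC. Hdac2, in the same list, fell by 0.28 and 0.32 in these steps (edgeR adjusted p = 0.00133 and 0.000443). Between the PC groups Hdac2 was not called on the TMM scale (-0.01, edgeR adjusted p = 0.888), but was under total-count scaling (-0.27, 0.0094). With total-count scaling the co-regulators split 1 higher and 5 lower between the PC groups, and only Hdac1 and Sin3b kept their call there under each scaling.

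Genes of pathways known to control KLF genes (the MEKK3 to ERK5 to MEF2 cascade upstream of Klf2, FOXO factors, TGF-beta signalling upstream of Klf10, and ubiquitin ligases of KLF proteins) made a list of 17. In IgE PC against IgG1 PC, 11 were higher, 2 lower and 4 not called, where 58.1% of all genes were called. The median of the list was 0.29 against -0.05 for all genes tested. Under total-count scaling 5 were higher and 4 lower. Tgfbr1, a TGF-beta receptor chain, measured 57.0 ± 2.33 CPM in IgE PC and 30.7 ± 6.45 in IgG1 PC (log2 0.89, SE 0.11, edgeR adjusted p = 4.2e-06). Foxo3 measured 181 ± 1.44 CPM in IgE PC and 107 ± 3.50 in IgG1 PC (log2 0.76, SE 0.05, edgeR adjusted p = 3.02e-09), against 72.1 ± 1.64 and 62.2 ± 2.39 in the iGC groups. The ligand Tgfb1 was lower in IgE PC (log2 -0.64, edgeR adjusted p = 4.54e-07), as was Smad3 (-0.44, adjusted p = 7.93e-06). From iGC to PC, 8 of the 17 rose and 5 fell in IgE cells (64.1% of all genes called), but 3 rose and 11 fell under total-count scaling. In IgG1 cells 4 rose and 8 fell (59.1% of all genes called), and 4 rose and 12 fell under total-count scaling. On the log2(TPM + 0.5) scale 3 rose and 12 fell in IgE cells, and 1 rose and 13 fell in IgG1 cells. Foxo3 rose in both steps, by 1.33 and 0.78 (edgeR adjusted p = 1.04e-12 and 1.19e-09), and Mef2c fell by 0.76 in the IgG1 step (adjusted p = 2.04e-05). The directions of Foxo3, Tgfb1 and Mef2c in these steps held with total-count scaling and in TPM.

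Genes reported as targets of KLF proteins in other settings numbered 8. In IgE PC against IgG1 PC, 3 were higher, 3 lower and 2 not called, where 58.1% of all genes were called, with a median log2 fold change of -0.53. Itgb7, an integrin chain reported downstream of KLF2, measured 71.0 ± 0.74 CPM in IgE iGC, 54.9 ± 1.52 in IgG1 iGC, 11.9 ± 1.73 in IgE PC and 21.96 ± 2.11 in IgG1 PC. It fell by 2.58 on the log2 scale in the IgE step and by 1.32 in the IgG1 step (edgeR adjusted p = 2.31e-12 and 7.71e-09). Its interaction was -1.26 (edgeR adjusted p = 2.6e-06). D6, with the highest mean Klf2, held the lowest mean Itgb7 of the 5 groups, at 6.55 ± 0.56 CPM. S1pr1, the receptor for exit from lymphoid tissue and a known KLF2 target, fell from 71.0 to 50.6 CPM in the IgE step and from 63.7 to 32.9 CPM in the IgG1 step (edgeR adjusted p = 0.00134 and 4.71e-06), as Klf2 did. Between the PC groups S1pr1 was higher in IgE (log2 0.61, SE 0.11, edgeR adjusted p = 0.000288), where Klf2 was lower. The S1pr1 mean in D6 was 33.6 ± 4.89 CPM, below both iGC groups, whereas the Klf2 mean was highest in D6. The S1pr1 interaction was 0.46 (edgeR adjusted p = 0.0302), opposite in sign to that of Klf2, and was not called under total-count scaling (0.362). The cell cycle inhibitor gene Cdkn1a rose by 2.16 in the IgE step and 1.25 in the IgG1 step (edgeR adjusted p = 1.56e-09 and 1.45e-06).

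Immediate-early genes, which can rise during handling and sorting, also differed between groups. The list also held the heat shock genes Hspa1a and Hspa1b. Of the 13 genes listed, 8 rose and 0 fell from IgE iGC to IgE PC (64.1% of all genes called). Under total-count scaling 3 rose and 3 fell, and on the log2(TPM + 0.5) scale 3 rose and 5 fell. From IgG1 iGC to IgG1 PC, 12 rose and 0 fell (59.1% of all genes called). The counts were 9 and 0 under total-count scaling and 6 and 0 on the log2(TPM + 0.5) scale. The 12 include Hspa1a (log2 0.89), whose edgeR adjusted p rounds to 0.05 and was 0.127 under total-count scaling. The summed CPM of the 13 genes was 517 to 553 in D6, 694 to 947 in the iGC libraries, 1110 to 1463 in IgE PC and 1211 to 1794 in IgG1 PC. Single genes did not all follow that sum. In IgE iGC against D6, Fos, Junb, Egr1, Ier2, Dusp1, Zfp36 and Btg2 were called higher on the TMM scale. Hspa1a, Hspa1b, Atf3 and Ier3 were called lower (log2 -6.75, -6.41, -4.32 and -1.75), and were also called lower than D6 in both PC groups. Klf2, Klf4, Klf6 and Klf10 are themselves known as early-response genes, and the part of such a response in their values was not tested.

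The genes whose log2 CPM followed each other member most closely are given by the same measure as for Klf4, over 15 libraries that share depth, scaling and group structure, and as a description. For Klf2 they were Actg1, Rbm38 and Patz1 (r 0.99 each). Actg1, which encodes cytoplasmic actin, measured 3543 ± 127 CPM in D6, 898 ± 58.4 in IgE PC and 1670 ± 79.2 in IgG1 PC. Klf3 was followed by Smarcad1, Ate1 and Ubqln1 (r 0.98 each), and Klf6 by Prps1l3, Mex3c and Dars (r between 0.985 and 0.990). For Klf9 they were Kdm5b, Ampd2 and Jade1 (r 0.97, 0.96 and 0.95). Kdm5b, a histone demethylase gene, measured 69.1 ± 2.71 CPM in IgE PC and between 36.2 and 41.8 on average in the other groups. Klf10 had the loosest matches, Aldoa, Lrrc47 and Klhl21 (r 0.93, 0.93 and 0.92). Klf13 was followed by Sla, Ambra1 and Ap2a2 (r 0.96 each), of which Sla measured 213 ± 6.63 CPM in IgE PC, 75.5 ± 8.05 in IgG1 PC and 21.0 or less on average elsewhere.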

How the data were processed

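Per the labels' protocols, polyA RNA was read strand-specifically from a single end (76 bp). The authors deposited 1 table with an expected count and a TPM value per gene and library. The deposited expected counts come from RSEM, per the file headers, and can be fractions because RSEM shares ambiguous reads among genes. The submitters' processing notes name cutadapt 1.9.1, STAR 2.5.2a, RSEM 1.3.0, DESeq2 1.12.3 and build GRCm38; the annotation release is not given in the sources used here. The TPM values, deposited by the authors, are scaled for length and library total. All columns matched a library title (0 unmapped), and titles gave the groups and replicate numbers.

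Counts were rounded. filterByExpr (count of at least 10, total of at least 15) left 15692 genes, which were scaled by TMM and fitted with 1 mean per group over 15 libraries with edgeR 4.0.16 (R 4.3.3; glmQLFit, robust; glmQLFTest, two-sided). There were 10 residual degrees of freedom and the biological coefficient of variation was 10.4%. P-values were Benjamini-Hochberg adjusted over all genes tested. The SE is the log2 fold change over the square root of F. Intervals are at 95% and use the 10 residual degrees of freedom, which can make them wider than edgeR's test implies. Alternatives were DESeq2 1.42.0, total-count scaling, no filter, a replicate block, limma 3.58.1 on log2(TPM + 0.5), only the groups compared, and leaving out each library. The scripts were tested on simulated data.

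The members and lists were chosen with earlier results of these data known. Named are all members and, per other list and comparison, at most 2 called genes per direction with the largest change and a mean of at least 1 CPM in a group, not all of which are printed. Followers of a member are the 3 genes with the highest Pearson r of log2 CPM (prior count 2), leaving out immunoglobulin, T cell receptor and predicted genes. Sin3b, Hdac2, S1pr1, single genes of the immediate-early list and D6 levels of targets were described after their values were seen. One member of the target list is not reported here by name, though the list's counts include it. Symbols came from a table that paired 51633 of 51912 identifiers. Nothing says whether libraries came from separate animals, so p-values measure the spread between these biological replicates.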

Additional observations from a re-analysis of the deposited data

Results flagged for a closer look

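The step from iGC to PC differed between IgE and IgG1 cells for 5 of the 7 members, by the test of the difference itself (edgeR's quasi-likelihood test, log2 scale, IgE step minus IgG1 step). The differences were 1.40 for Klf3 (adjusted p = 3.34e-05), -1.10 for Klf2 (9.17e-05), 0.98 for Klf9 (0.000471), -1.39 for Klf4 (0.0244) and 0.24 for Klf13 (0.0322). Of all genes tested, 42.9% were called in the same test. The Klf13 difference was 0.0055 under total-count scaling (adjusted p = 0.972), and Klf4 and Klf13 each lost the call with no filter and in 6 fits that left out 1 library. For Klf4 the feeder markers moved with the value (6 of 7 tested had negative interactions that were called), and their part in it was not tested.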

How the results depend on the processing

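Klf2, Klf3 and Klf9 kept their direction and call between the plasma cells and in the interaction under all alternatives run. Of 77 member results, 73 were the same by DESeq2, 76 with the replicate block, 69 with no filter, 69 with only the groups compared, 55 with total-count scaling and 51 with log2(TPM + 0.5). The cause was not tested for any change. Low counts limit Klf4 most (36 counts in 1 library).

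Members called between IgE PC and IgG1 PC numbered 4 with total-count scaling, with log2(TPM + 0.5) and with only the groups compared, and 4 to 6 when 1 library was left out. In the interaction 3 were called with no filter and 3 to 5 when 1 library was left out. Between the iGC groups 1 was called with only those groups fitted. For IgE PC against IgG1 iGC the count was 3 to 5 when 1 library was left out. All genes called between the iGC groups were 607, against 937 by DESeq2, 399 with log2(TPM + 0.5), 1503 with only those groups, and 323 to 403 when 1 library was left out. Genes called in the interaction fell from 6733 to 4477 with log2(TPM + 0.5).

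Reversed values with total-count scaling were, for IgE PC against IgE iGC, -0.20 (Klf3), -0.16 (Klf4), -0.23 (Klf10) and -0.0431 (Klf13). They were -0.0497 (Klf9) and -0.0486 (Klf13) for IgG1 PC against IgG1 iGC, -0.0776 (Klf13) for IgE PC against IgG1 PC, and -0.0404 (Klf6) for the interaction. Klf13 had -0.0618, -0.10 and -0.0274 in IgE iGC, IgE PC and IgG1 PC against D6, and -0.13 for IgE PC against IgG1 iGC. Klf9 had -0.0288 for IgG1 PC against IgE iGC. On the log2(TPM + 0.5) scale the same IgE step gave -0.47 (Klf3), -0.25 (Klf4), -0.40 (Klf10) and -0.31 (Klf13), and the IgG1 step -0.36 (Klf9) and -0.39 (Klf13). Klf6 had -0.11 between plasma cells and -0.25 for the interaction. Klf13 had -0.14, -0.0631, -0.45 and -0.46 in IgE iGC, IgG1 iGC, IgE PC and IgG1 PC against D6, -0.38 for IgE PC against IgG1 iGC and -0.31 for IgG1 PC against IgE iGC. Klf9 had -0.0526 for IgE PC against D6 and -0.33 for IgG1 PC against IgE iGC, and Klf10 had -0.12 for IgE PC against IgG1 iGC. DESeq2 gave 0.0016 for Klf9 between the iGC groups and -0.0121 for Klf13 in IgE iGC against D6. Only the groups compared gave 0.004 for Klf10 in IgG1 PC against IgG1 iGC. Leaving out 1 library gave -0.0404 to 0.0734 for Klf13 in IgE iGC against D6 and -0.24 to 0.18 for Klf10 in IgG1 PC against IgG1 iGC. Between the iGC groups it gave -0.10 to 0.0371 for Klf2, -0.0008 to 0.15 for Klf6 and -0.11 to 0.084 for Klf9. Medians of all genes tested were -0.55 in the IgE step and -0.22 in the IgG1 step with total-count scaling. On the log2(TPM + 0.5) scale these medians were -0.57 and -0.46.

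Same-numbered libraries deviated with a mean correlation of -0.0145 (range -0.195 to 0.0908), and 0 of 30 pairs exceeded 0.1. These deviations from means of 3 libraries also carry the noise of each library. They therefore cannot decide whether same-numbered libraries share an animal or culture. With the replicate block, 1 member call was lost (Klf4, IgE PC against IgG1 iGC, adjusted p = 0.0596), and IgE PC against IgG1 PC had 7 members and 9005 genes called.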
